A study of Mus musculus with 12 samples.

Results

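The 9 genes described here encode ligands and receptors of the vascular endothelial growth factor (VEGF) family: 4 ligands, Vegfa, Vegfb, Vegfc and Pgf, and 5 receptors, Kdr, Flt1, Flt4, Nrp1 and Nrp2. They were chosen by name, and the further ligand Vegfd is given with the extracellular genes. The RefSeq row names of the deposited table were matched to mouse symbols, and for a gene with several rows the row with the highest mean over all arrays was kept. All 9 were found among the 15204 genes that could be named. They were measured on 12 single-sample microarrays of brain endothelial cells, 3 from each of 4 sources. The non-cultured cells were freshly isolated microvascular endothelial cells that had been purified further with magnetic beads against PECAM1, an endothelial surface protein. Single-cultured cells were isolated in the same way and grown for 5 days on transwell filters, porous inserts that hold a cell layer above a second chamber. Co-cultured cells were grown for the same 5 days on such filters above glial cultures 3 weeks old, which they did not touch. b.End5 is a mouse brain endothelioma line, grown as cultures of its own and known to be immortalised by a viral oncogene. The bead step is stated for the non-cultured cells and not for the cultured ones, so culture and purification cannot be told apart. The labels name no strain, age or number of mice behind an array. Nothing states that the 3 arrays of a source came from separate isolations, so the p-values measure the spread between these arrays, which may be technical.

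VEGF ligands are secreted dimers that bind receptor tyrosine kinases on endothelial cells and drive vessel growth, survival and permeability. Vegfa binds Kdr, the main signalling receptor of blood vessel endothelium, and Flt1, which binds it more tightly, signals weakly and also exists as a secreted trap. Pgf (placental growth factor) and Vegfb bind Flt1 and not Kdr. Vegfc binds Flt4, the receptor best known from lymphatic vessels, and after processing also Kdr. Nrp1 and Nrp2 are co-receptors that lack a kinase and also bind class 3 semaphorins. In the healthy brain the endothelium is mostly quiescent, and Vegfa is known to come largely from other cells.

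Sequence before the start of transcription is shown for genes whose level differed between the sources, as the stretch of genome that lies closest to that start. It is taken from RefSeq on the mouse build GRCm38.p6 and reads 5′ to 3′ along the gene's own strand. Capitals mark GGAA, the core bound by ETS factors, which regulate endothelial genes, and GGGCGG, a GC box, on either strand, so that TTCC and CCGCCC are the same motifs read from the opposite strand. The first set is the 250 bases before the start of Vegfa (chr17:46032378-46032627, minus strand), Vegfc (chr8:54077282-54077531, plus strand), Nrp2 (chr1:62703067-62703316, plus strand) and Flt4 (chr11:49609429-49609678, plus strand).
Vegfa: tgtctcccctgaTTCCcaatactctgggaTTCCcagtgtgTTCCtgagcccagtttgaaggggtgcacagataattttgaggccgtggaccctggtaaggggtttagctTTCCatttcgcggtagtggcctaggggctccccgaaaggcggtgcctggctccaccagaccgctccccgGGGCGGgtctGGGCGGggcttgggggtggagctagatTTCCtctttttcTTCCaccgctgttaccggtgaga
Vegfc: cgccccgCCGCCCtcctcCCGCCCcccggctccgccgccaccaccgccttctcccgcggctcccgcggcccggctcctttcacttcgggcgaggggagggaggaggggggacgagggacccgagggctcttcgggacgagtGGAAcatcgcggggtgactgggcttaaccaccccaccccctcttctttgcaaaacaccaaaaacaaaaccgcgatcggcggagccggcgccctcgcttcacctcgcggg
Nrp2: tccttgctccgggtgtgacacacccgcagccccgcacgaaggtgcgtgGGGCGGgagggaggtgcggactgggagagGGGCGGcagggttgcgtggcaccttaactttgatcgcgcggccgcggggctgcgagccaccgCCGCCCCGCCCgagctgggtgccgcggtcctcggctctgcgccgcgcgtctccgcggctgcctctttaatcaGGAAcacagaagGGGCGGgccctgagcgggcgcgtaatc
Flt4: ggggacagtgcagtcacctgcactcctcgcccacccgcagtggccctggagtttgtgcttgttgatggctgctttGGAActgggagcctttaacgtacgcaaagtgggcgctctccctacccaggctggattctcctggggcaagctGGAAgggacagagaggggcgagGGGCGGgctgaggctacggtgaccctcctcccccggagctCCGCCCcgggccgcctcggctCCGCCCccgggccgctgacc
The second set is 30 bases around a match in genes whose annotated span reaches further upstream: Flt1, which bears a GGAA at 52 and at 39 bases before the start (chr5:147726047-147726076, minus strand), Kdr, its fellow receptor, with a pair of GGAA matches (chr5:75978565-75978594, minus strand), and Pgf, with a GC box 50 bases before the start (chr12:85177346-85177375, minus strand).
Flt1: aggtgccggggtaGGAAgtgggctggGGAA
Kdr: gggagtgggcgtgGGAAaccgGGAAaccca
Pgf: cgagatagaagtGGGCGGgcaggctgcagc
RefSeq listed 11 starts for the 9 genes. GGAA occurred before 9 of them and for 8 of the 9 genes, Pgf being the exception, while 93.4% of all 32851 mouse windows of 250 bases held it. GGGCGG occurred before 10 of the 11 starts and for all 9 genes, against 32.7% of all windows. ACGTG, the core of the hypoxia response element, occurred before 1 start, the other start of Vegfa, against 16.6% of all windows. The windows of the 9 genes held between 59.2% and 76.4% G and C, where the median window held 52.4%. These matches describe the letters only.

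The values are log2 RMA intensities, a scale on which a difference of 1 is a 2-fold difference. Array medians lay between 7.21 and 7.40, and between 79.4% and 82.9% of genes lay above the no-target level, set on each array by 27 probe sets for bacterial genes (their 95th percentile, between 4.01 and 4.46). All 9 genes lay above it on all 12 arrays. The number of arrays limits the precision, with 3 in each source. b.End5 replicate 2 stood apart, with 1106 and 1193 genes more than 1 log2 unit away from its fellow arrays, which differed in 42. Single-cultured replicate 2 also lay apart, with 416 and 421 genes against 111, and had the widest difference between 3′ and 5′ probe sets of the 12 arrays for Gapdh (3.97 log2 units) and actin (0.41), a sign of RNA or cDNA quality. The co-cultured arrays differed from each other by 316, 397 and 645 genes. The summed level of 14 endothelial markers, led by Egfl7 and Cldn5, was 16.62 to 16.72 on the non-cultured arrays, 16.21 to 16.45 on the single-cultured, 16.08 to 16.23 on the co-cultured and 15.95 to 16.02 on the b.End5 arrays. The sum was thus high in all sources, but single genes fell: 3 of the 14 were called lower in either primary culture and 5 in b.End5 against non-cultured cells, and 1 lay at the no-target level in b.End5. Of all genes 5.82%, 6.20% and 9.06% were called lower in single-cultured, co-cultured and b.End5 cells. Other cell types moved with culture. The 15 measured microglia and macrophage markers, led by Lyz2 and Tyrobp, summed to 10.81 to 11.53, 13.49 to 14.42, 13.44 to 14.56 and 9.61 to 9.79 in the same order. The 13 pericyte and smooth muscle markers, led by Acta2 and Tagln, summed to 12.40 to 12.93, 13.19 to 13.74, 13.65 to 14.26 and 9.15 to 10.17. They moved in both directions, with 3 called higher and 4 lower in single-cultured and 5 higher and 3 lower in co-cultured cells. The shares of all genes were 7.18% higher and 5.82% lower in the former and 9.10% and 6.20% in the latter. Among the markers that fell, Rgs5, a pericyte gene, averaged 11.06, 5.27, 6.80 and 3.90 in the 4 sources, the last at the no-target level. The 10 fibroblast markers summed to 9.12 to 9.75, 10.19 to 10.84, 11.62 to 13.86 and 8.39 to 8.54, with Lum and Dpt at the no-target level everywhere. The 10 proliferation markers summed to 9.07 to 9.22, 11.53 to 11.77, 12.72 to 12.92 and 12.80 to 12.84. In such bulk RNA, fewer cells of a type and less RNA per cell cannot be told apart.

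A gene was called where limma gave a Benjamini-Hochberg adjusted p under 0.05, over all 15204 genes, and a difference of at least 2-fold. The 3 comparisons with the non-cultured cells share those 3 arrays. Pgf and Vegfa rose and Vegfc fell in both cultures of primary cells, Vegfa alone of these rose in b.End5, and Flt1 was the receptor that fell in all 3. In single-cultured against non-cultured cells, Pgf, Vegfa and Nrp2 were called higher and Vegfc and Flt1 lower, which is 3 and 2 of 9, where 7.18% and 5.82% of all genes were called higher and lower. In co-cultured against non-cultured cells, 2 genes were called higher, Pgf and Vegfa, and 2 lower, Vegfc and Flt1, against 9.10% and 6.20% of all genes. In b.End5 against non-cultured cells, Vegfa, Vegfb, Flt4 and Nrp2 were called higher and Flt1 lower, 4 and 1 of 9, against 9.10% and 9.06%. Between co-cultured and single-cultured cells, 0 of 9 genes were called by limma in either direction, where 0.901% and 0.289% of all genes were. At an unadjusted p under 0.05, 2 of the 9 differed there, Pgf and Vegfa. In b.End5 against single-cultured cells, Vegfc and Flt4 were called higher and Pgf lower, against 6.25% and 7.82% of all genes. The same 3 genes were called in the same directions in b.End5 against co-cultured cells, against 5.10% and 7.96% of all genes. The median log2 difference of the 9 genes was -0.13, -0.33 and 0.20 against the non-cultured cells for single-cultured, co-cultured and b.End5 cells, beside -0.0025, -0.037 and 0.078 over all genes. When each array was centred on its median over all genes, the co-cultured values shifted against the non-cultured by 0.15 log2 units in the mean. The calls over all genes then turned from 1384 higher and 942 lower to 1166 and 1213. The same centring turned those between co-cultured and single-cultured cells from 137 higher and 44 lower to 107 and 60.

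**Figure D1:**
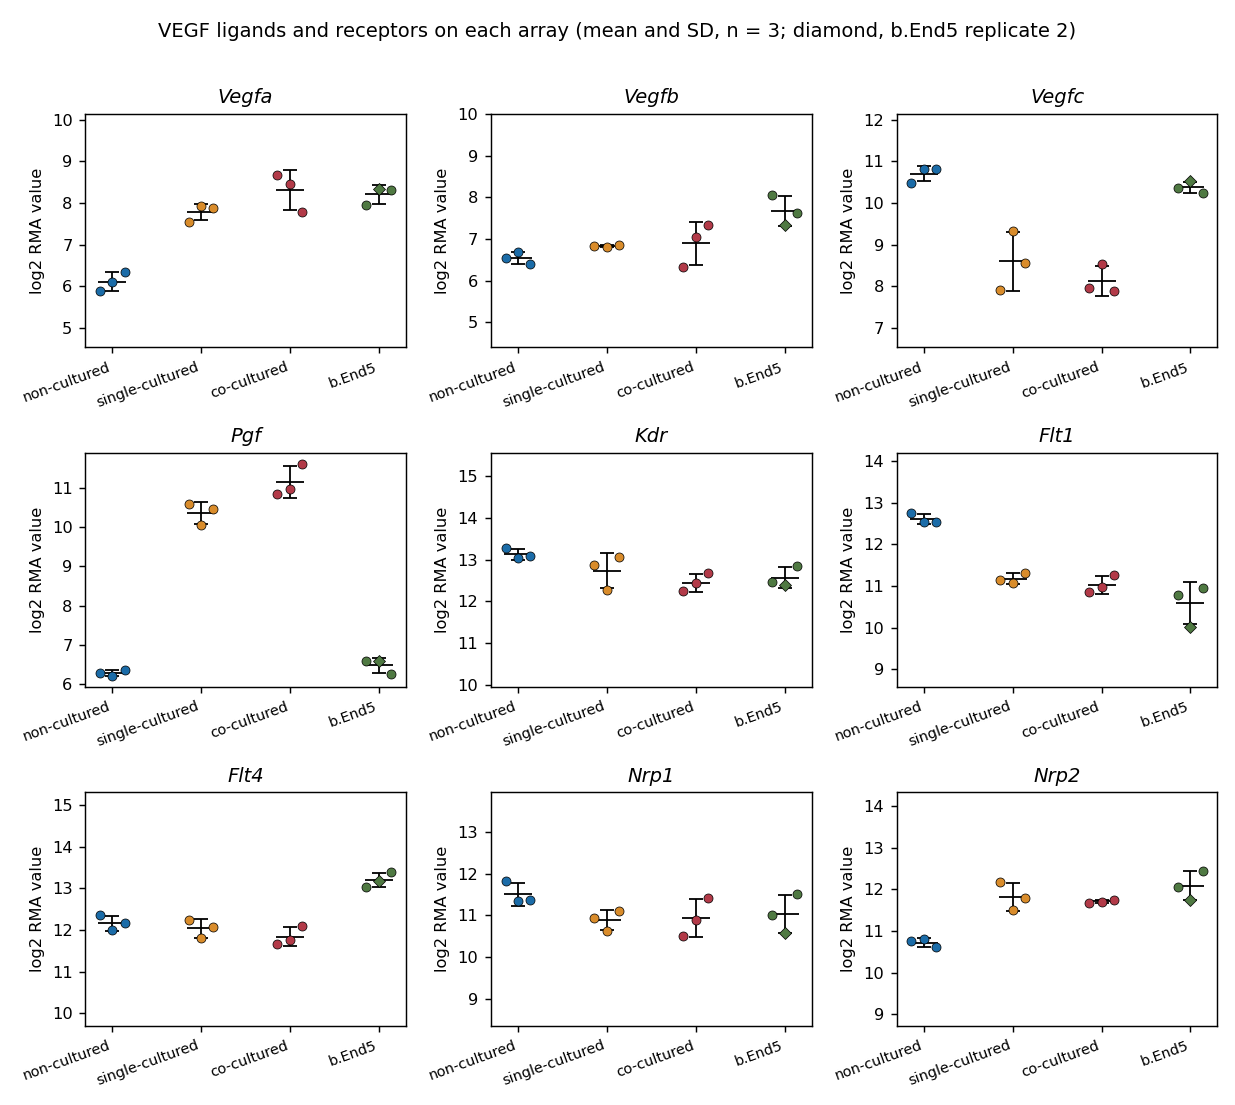
Log2 RMA value (y axes) of each of the 9 genes on each of the 12 arrays by source (x axes). Points show arrays, bars the mean and SD of 3 arrays, and a diamond b.End5 replicate 2. The y axes span the same number of log2 units, except that of Pgf, which spans slightly more. Pgf stood near 6 in non-cultured and b.End5 cells and between 10.05 and 11.61 in both cultures of primary cells, Vegfc showed the opposite order, and Flt1 was highest in the non-cultured cells.

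Pgf, a ligand of Flt1, had the widest range of the 9 genes. Its log2 values were 6.29, 6.21 and 6.36 on the non-cultured arrays, 10.59, 10.05 and 10.46 on the single-cultured, 10.85, 10.97 and 11.61 on the co-cultured, and 6.60, 6.59 and 6.26 on the b.End5 arrays. Every array of the primary cultures lay above every array of the other sources, while the non-cultured and b.End5 arrays overlapped. The means and SD of 3 arrays were 6.29 ± 0.07, 10.37 ± 0.28, 11.15 ± 0.41 and 6.48 ± 0.19. Pgf rose by 4.08 log2 units (SE 0.20), or 16.9-fold, in single-cultured cells, with an adjusted p of 6.56e-08 from limma. In co-cultured cells it rose by 4.86, or 29.1-fold (adjusted p = 1.14e-08, limma). The co-cultured arrays all lay above the single-cultured ones, and the difference of 0.78 (95% interval 0.33 to 1.22) had an unadjusted p of 0.00266 and an adjusted p of 0.0814 from limma, so it was not called. b.End5 cells were lower than single-cultured cells by 3.88 and lower than co-cultured cells by 4.66 log2 units in limma's fit, with adjusted p of 8.35e-08 and 2.08e-08. b.End5 and non-cultured cells were not told apart, at a difference of 0.20 with a 95% interval of -0.25 to 0.65. Of the markers of other cells, 7 of 15 for microglia and macrophages were called higher in single-cultured cells and 1 lower. Fibroblasts had 2 of 10 called higher, and pericytes and smooth muscle 3 of 13 higher and 4 lower. Of all genes 7.18% were called higher and 5.82% lower there. In co-cultured cells 9, 4 and 5 were called higher, and 1 microglia and macrophage and 3 pericyte and smooth muscle markers lower, beside 9.10% and 6.20% of all genes. With 1 array left out, the higher calls of the fibroblast list in single-cultured cells ranged from 1 to 3 and those of the pericyte and smooth muscle list in co-cultured cells from 3 to 6. Col1a2, a collagen gene and leading fibroblast marker, read 7.01, 7.46 and 7.78 on the non-cultured arrays, 8.34, 8.99 and 8.14 on the single-cultured, 12.47, 11.43 and 10.15 on the co-cultured, and 5.11, 5.29 and 4.52 on the b.End5 arrays. The part of these cells in the Pgf levels was not tested.

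Vegfa is the ligand of both Kdr and Flt1. Its log2 values were 5.89, 6.09 and 6.35 on the non-cultured arrays, 7.55, 7.92 and 7.87 on the single-cultured, 8.68, 8.46 and 7.77 on the co-cultured, and 7.95, 8.34 and 8.32 on the b.End5 arrays. The non-cultured arrays lay below all others, and single-cultured and co-cultured arrays overlapped, as did co-cultured and b.End5 arrays. The means were 6.11 ± 0.23, 7.78 ± 0.20, 8.30 ± 0.47 and 8.21 ± 0.22 (SD, n = 3). Against non-cultured cells, Vegfa rose by 1.67 log2 units (SE 0.22), or 3.17-fold, in single-cultured cells, with an adjusted p of 0.000172 from limma. It rose by 2.19, or 4.56-fold, in co-cultured cells and by 2.09, or 4.27-fold, in b.End5, with adjusted p of 1.69e-05 and 1.52e-05 from limma. Co-cultured cells stood 0.52 above single-cultured cells (95% interval 0.03 to 1.02), with an unadjusted p of 0.0389 and an adjusted p of 0.323 from limma. The 3 upper sources were not told apart after adjustment. All 3 probe sets of Vegfa held the same values, so its isoforms cannot be compared here. The part of other cell types in the Vegfa levels was not tested.

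Vegfc, the ligand of Flt4, ran the other way in the primary cultures. The arrays read 10.49, 10.81 and 10.83 on the non-cultured arrays, 7.92, 9.33 and 8.56 on the single-cultured, 7.95, 8.54 and 7.89 on the co-cultured, and 10.36, 10.52 and 10.25 on the b.End5 arrays. All 6 arrays of the primary cultures lay below the 6 arrays of the other sources, and within each of those sets the sources overlapped. The means were 10.71 ± 0.19, 8.60 ± 0.71, 8.13 ± 0.36 and 10.38 ± 0.14 (SD, n = 3). Vegfc fell by 2.11 log2 units (SE 0.30) in single-cultured cells, a 4.31-fold difference with an adjusted p of 0.000238 from limma. In co-cultured cells it fell by 2.58, or 5.99-fold (adjusted p = 4.18e-05, limma). b.End5 cells lay 1.78 above single-cultured and 2.25 above co-cultured cells, with adjusted p of 0.000776 and 0.000148 from limma. Against non-cultured cells b.End5 differed by -0.33, with a 95% interval of -0.98 to 0.32. Single-cultured replicate 2 held the highest value of the primary cultures, and without it the single-cultured difference was -2.47 with an adjusted p of 3.56e-05 from limma.

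Vegfb, a ligand of Flt1 linked to lipid handling in muscle endothelium, had the narrowest range of means among the 4 ligands. On the log2 scale it read 6.55, 6.68 and 6.41 on the non-cultured arrays, 6.84, 6.82 and 6.85 on the single-cultured, 6.33, 7.04 and 7.33 on the co-cultured, and 8.07, 7.35 and 7.62 on the b.End5 arrays. The b.End5 arrays lay above all others, and the co-cultured arrays spread over the range of both other sources. In b.End5 Vegfb rose by 1.14 log2 units (SE 0.24), or 2.20-fold, against non-cultured cells, with an adjusted p of 0.0025 from limma. Without b.End5 replicate 1 the difference was 0.94 and the call was lost. The b.End5 cells stood 0.84 above single-cultured and 0.78 above co-cultured cells, which passed limma's test with adjusted p of 0.0189 and 0.0278 and stayed under 2-fold. Without b.End5 replicate 2 the first of these was 1.01 and was called. The cultures differed from non-cultured cells by 0.29 and 0.36, with adjusted p of 0.421 and 0.286 from limma.

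Flt1, the receptor shared by Vegfa, Vegfb and Pgf, was highest in the non-cultured cells. The log2 values of Flt1 were 12.76, 12.55 and 12.55 on the non-cultured arrays, 11.15, 11.08 and 11.32 on the single-cultured, 10.85, 10.98 and 11.26 on the co-cultured, and 10.79, 10.02 and 10.96 on the b.End5 arrays. All non-cultured arrays lay above the 9 others by more than 1 log2 unit, and b.End5 replicate 2 was the lowest array. The means were 12.62 ± 0.12, 11.18 ± 0.12, 11.03 ± 0.21 and 10.59 ± 0.50 (SD, n = 3). Flt1 fell by 1.44 (SE 0.21), 1.59 and 2.03 log2 units in single-cultured, co-cultured and b.End5 cells, or 2.71-fold, 3.01-fold and 4.08-fold, with adjusted p of 0.000345, 0.00013 and 1.25e-05 from limma. Without b.End5 replicate 2 the last difference was -1.75 (adjusted p = 2.42e-06, limma). The 3 lower sources were not told apart by the call rule. b.End5 stood 0.59 below single-cultured cells, with adjusted p = 0.0549 from limma, and 0.31 below them without replicate 2. Flt1 was read by 1 probe set, so its membrane and secreted forms were not told apart.

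Kdr, the main signalling receptor, had source means that spanned 0.68 log2 units, where those of Flt1 spanned 2.03. It read 13.28, 13.03 and 13.08 on the non-cultured arrays, 12.88, 12.27 and 13.06 on the single-cultured, 12.24, 12.43 and 12.67 on the co-cultured, and 12.46, 12.40 and 12.85 on the b.End5 arrays. The non-cultured arrays lay above the co-cultured and b.End5 arrays and overlapped with the single-cultured ones. Kdr was called in 0 of the 6 comparisons by limma, and its unadjusted p was under 0.05 in 2 of them. In co-cultured cells the difference of -0.68 (95% interval -1.13 to -0.23) passed limma's test with an adjusted p of 0.0233 and stayed under 2-fold. The differences of single-cultured and b.End5 cells from non-cultured cells were -0.39 and -0.56, with adjusted p of 0.191 and 0.0505 from limma.

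Flt4, the Vegfc receptor, was highest in b.End5. The log2 values of Flt4 were 12.35, 11.99 and 12.16 on the non-cultured arrays, 12.24, 11.80 and 12.07 on the single-cultured, 11.67, 11.76 and 12.09 on the co-cultured, and 13.04, 13.17 and 13.39 on the b.End5 arrays. The b.End5 arrays lay above all others, and the 3 sources of primary cells overlapped. Flt4 stood 1.16 (SE 0.16) above single-cultured and 1.36 above co-cultured cells in b.End5, or 2.24-fold and 2.56-fold, with adjusted p of 0.000215 and 7.04e-05 from limma. Against non-cultured cells it rose by 1.03, or 2.04-fold (adjusted p = 0.000349, limma). That difference was close to the 2-fold limit and came under it with cyclic loess (0.95), with centring on the median (0.95) or on housekeeping genes (0.98), without non-cultured replicate 2 (0.94) and without b.End5 replicate 3 (0.93). Its adjusted p stayed under 0.05 in each of these 5 cases. The primary cultures differed from non-cultured cells by -0.13 and -0.33, with 95% intervals of -0.49 to 0.22 and -0.69 to 0.03. The 4 measured of 6 lymphatic endothelial markers summed to 6.18 to 6.70, 9.33 to 9.83, 9.11 to 10.62 and 7.92 to 8.05 in the 4 sources. The sum was led by Pdpn, which averaged 9.54 in co-cultured cells and 4.10 in b.End5. Lyve1 and Reln averaged 7.21 and 4.94 in b.End5 beside 6.89 and 3.98 in co-cultured cells, which was not called. The Reln difference passed limma's test there (adjusted p = 0.00578) and stayed under 2-fold. Against non-cultured cells 2 of the 4 markers were called higher and 0 lower in each of single-cultured, co-cultured and b.End5 cells. Of all genes 7.18%, 9.10% and 9.10% were called higher and 5.82%, 6.20% and 9.06% lower. The median difference of the 4 markers in b.End5 was 1.51, 0.50 and 0.64 against non-cultured, single-cultured and co-cultured cells. Of the same 4, Prox1 lay at the no-target level in the 3 sources of primary cells. The b.End5 arrays read 5.96, 3.36 and 6.30 for it, which puts replicate 2 at that level too. The part of cells with these markers in the Flt4 level was not tested.

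Nrp1 and Nrp2, the co-receptors, went apart. The log2 values of Nrp1 were 11.83, 11.35 and 11.36 on the non-cultured arrays, 10.95, 10.62 and 11.11 on the single-cultured, 10.51, 10.88 and 11.41 on the co-cultured, and 11.02, 10.59 and 11.51 on the b.End5 arrays. Those of Nrp2 were 10.76, 10.80 and 10.61, then 12.18, 11.51 and 11.79, then 11.68, 11.70 and 11.75, and then 12.06, 11.75 and 12.45 in the same order. All Nrp2 arrays of the other sources lay above the non-cultured ones, while the Nrp1 arrays of co-cultured and b.End5 cells overlapped with them. Nrp1 was called in 0 of the 6 comparisons by limma, with differences of -0.62, -0.58 and -0.47 from non-cultured cells and adjusted p of 0.113, 0.121 and 0.198. The first of these had an unadjusted p of 0.04.

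Nrp2 rose by 1.10 log2 units (SE 0.19), or 2.15-fold, in single-cultured cells, with an adjusted p of 0.00106 from limma. In b.End5 it rose by 1.36, or 2.57-fold (adjusted p = 0.000144, limma). In co-cultured cells the difference of 0.99 passed limma's test with an adjusted p of 0.00185 and missed the 2-fold limit. The single-cultured call was lost with cyclic loess (0.97) and without single-cultured replicate 1 (0.93). The co-cultured one was gained without non-cultured replicate 1 (1.01) or 2 (1.03), without co-cultured replicate 1 (1.00) and with the mean over all probe sets of the gene (1.25). Nrp2 had 6 probe sets in 2 distinct profiles, and the other profile differed more. Its means were 9.64, 11.53, 11.42 and 11.55 in the 4 sources, and its differences from non-cultured cells were 1.89, 1.77 and 1.91 log2 units, with adjusted p of 1.77e-06, 2.36e-06 and 7.1e-07 from limma.

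**Figure D2:**
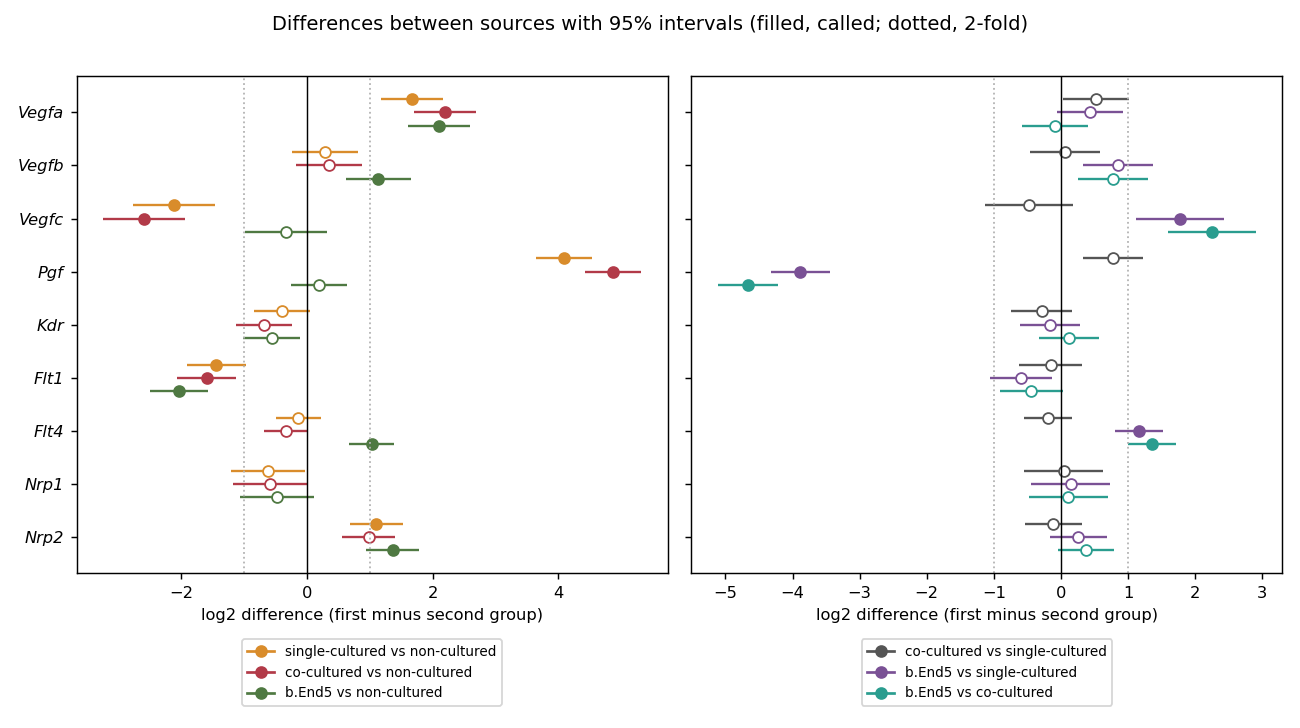
Log2 difference (x axes, first minus second source) of each of the 9 genes (y axis) in the 6 comparisons, with points for limma's estimates, lines for 95% intervals, filled points for called genes and dotted lines at 2-fold. The left panel shows Pgf, Vegfa and Nrp2 right of 0 and Vegfc and Flt1 left of 0 in single-cultured cells, and the right panel shows open points for all 9 genes between co-cultured and single-cultured cells.

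Differences between a pair of members on the same array do not depend on how that array was scaled by a single factor. Probe sets bind with different strength, so only the change between sources is read and not the sign. Flt1 minus Kdr was -0.52, -0.47 and -0.54 on the non-cultured arrays, -1.73, -1.18 and -1.74 on the single-cultured, -1.39, -1.46 and -1.40 on the co-cultured, and -1.67, -2.38 and -1.90 on the b.End5 arrays. All 9 arrays of the other sources lay below the non-cultured ones, with changes of -1.04, -0.91 and -1.47 in the mean. Nrp1 minus Nrp2 changed by -1.73, -1.57 and -1.84 in single-cultured, co-cultured and b.End5 cells, again without overlap with the non-cultured arrays. Pgf minus Vegfa rose on every array of the primary cultures, by 2.42 and 2.67 in the mean, and lay lower on every b.End5 array, by -1.89. Each of these 9 contrasts with non-cultured cells had a two-sided exact permutation p of 0.10, the smallest that 3 against 3 arrays allow, and 0.15 after adjustment over 18 contrasts. With 3 against 3 arrays this exact test cannot reach 0.05.

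**Figure D3:**
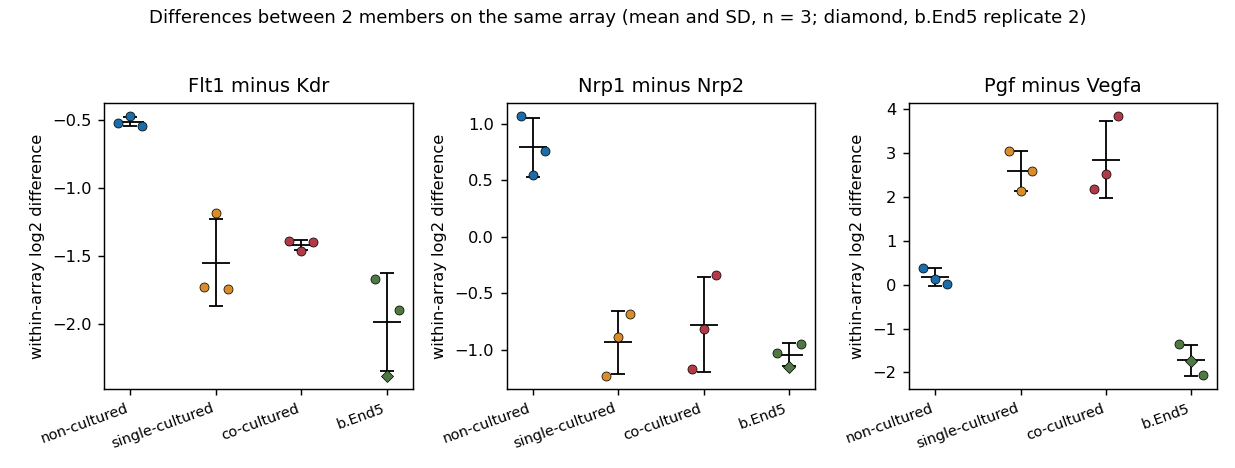
Difference in log2 RMA value between the members of 3 pairs on the same array (y axes) by source (x axes), with points for arrays, bars for the mean and SD of 3 arrays and a diamond for b.End5 replicate 2. Flt1 minus Kdr and Nrp1 minus Nrp2 were highest on the non-cultured arrays, and Pgf minus Vegfa lay between 2.13 and 3.84 in the primary cultures and between -2.06 and -1.36 in b.End5.

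Among all genes, those whose centred profile lay nearest to a member's over the 12 arrays were listed for the 4 members whose means spanned at least 2 log2 units. For Pgf these were Frzb, a secreted Wnt antagonist, Loxl2, which crosslinks collagen, and the orphan receptor Gpr176, at root mean square distances of 0.51, 0.52 and 0.54 log2 units. Frzb averaged 4.55, 8.64, 8.84 and 4.64 in the 4 sources. For Vegfc they were St6gal1, which adds sialic acid to glycoproteins, Ephx1, an epoxide hydrolase, and Cd40, a receptor of immune signals, at 0.34, 0.36 and 0.38. For Vegfa they were the G protein subunit Gng10, the mitochondrial folate enzyme Mthfd1l and Rad18, which acts in DNA damage tolerance, at 0.21, 0.23 and 0.25. For Flt1 they were the junction protein Pkp4, the kinase Map4k2 and the ceramide transporter Cert1, at 0.16, 0.17 and 0.19. The distances describe these 12 arrays, which share their sources, and carry no test.

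The genes around the VEGF system were read in 7 lists, with shares of all genes for the same comparison given beside each count. Extracellular genes that bind, release or modify VEGF were called higher more often than lower in the primary cultures. Of the 22 measured, 11 rose and 1 fell in single-cultured cells and 13 rose and 1 fell in co-cultured cells, beside 7.18% higher and 5.82% lower, and 9.10% and 6.20%, of all genes. In the same comparisons 7 and 9 of the 15 microglia and macrophage markers were called higher and 1 lower in each. Of the 10 fibroblast markers 2 and 4 were called higher. The part of these other cells in the counts of the extracellular list was not tested. The list's median differences were 1.25 and 1.60, or 1.00 and 1.59 with genes at the no-target level set to their bound. Thbs1, a matrix protein that inhibits vessel growth, rose by 6.54 and 6.41 log2 units, with values of 5.15, 5.58 and 5.64 on the non-cultured and 12.02, 11.93 and 12.03 on the single-cultured arrays. Sulf1, a sulfatase that edits heparan sulfate, rose by 4.30 and 4.43. Vegfd, the remaining ligand of Flt4, was the gene of the list that fell, by 1.11 and 1.69, from 7.03, 7.63 and 7.61 on the non-cultured arrays to 6.35, 6.53 and 6.07 on the single-cultured and 6.28, 5.45 and 5.48 on the co-cultured arrays. It read 5.88, 6.39 and 6.16 on the b.End5 arrays, also below all non-cultured arrays. In b.End5, 6 rose and 3 fell against non-cultured cells, or 4 and 3 without b.End5 replicate 2, beside 9.10% and 9.06% of all genes, with a median of 0.15. Sulf2 rose there by 5.59, while Igfbp7, a matrix protein of brain vessels, and Ccn2, which binds VEGF, fell by 4.91 and 3.46. Mmp9, a protease that frees VEGF from matrix, was the gene of this list called between co-cultured and single-cultured cells, by 3.23 (adjusted p = 0.00359, limma), with values of 9.89, 8.82 and 7.37 against 5.68, 5.41 and 5.29. In that comparison 3 of the 10 fibroblast and 6 of the 10 proliferation markers were also called higher, or 1 to 3 and 5 to 8 with 1 array left out. Of all genes 0.901% were called higher there. On the co-cultured arrays Mmp9 had the same order as Col1a2, given above. Of the ligands that rose in the primary cultures, Vegfa also had that order and Pgf had the reverse order. An order of 3 arrays carries no test, and the part of other cells in the Mmp9, Vegfa and Pgf levels was not tested.

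Genes known to be induced by VEGF in endothelium split in the primary cultures and lay mostly lower in b.End5. Of 32 measured, 10 rose and 5 fell in single-cultured cells, 12 rose and 5 fell in co-cultured cells, and 4 rose and 15 fell in b.End5, or 4 and 17 without b.End5 replicate 2. Of all genes, 7.18%, 9.10% and 9.10% were called higher and 5.82%, 6.20% and 9.06% lower in these comparisons. The medians were 0.020, 0.095 and -1.04, the last of them -0.94 with bounds. Markers of other cell types also moved in these comparisons, as given above, and their part in these counts was not tested. Plau, the urokinase, rose by 4.41 and 5.04 in the primary cultures, and Angpt2, a ligand of Tek, rose by 4.12 in single-cultured cells. Angpt2 stood at 13.14, 13.14 and 13.16 on the co-cultured arrays and at 5.84, 6.22 and 6.54 on the b.End5 arrays. F3, tissue factor, was at least 19.8-fold higher in co-cultured than in non-cultured cells, where it lay at the no-target level. The immediate early gene Nr4a1 fell by 6.68 and 5.57 and its relative Nr4a2 by 4.04 and 3.68. In b.End5, the secreted glycoprotein Stc1 and Plvap, the diaphragm protein of leaky vessels, rose by 5.41 and 5.36. Ccn1, a matrix signalling protein, and Pdgfb, which recruits pericytes, fell there by 6.47 and 6.25. Pdgfb averaged 4.33 in b.End5, near the no-target level, so the size of its fall is uncertain.

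Oxygen sensing genes include regulators and targets of the hypoxia response. Of 24 measured, 5 rose and 0 fell by limma's call in single-cultured cells (10 and 5 at an unadjusted p under 0.05, and 4 and 1 called without single-cultured replicate 2), 7 rose and 2 fell in co-cultured cells, and 4 rose and 4 fell in b.End5. The shares of all genes were 7.18% higher and 5.82% lower, 9.10% and 6.20%, and 9.10% and 9.06%. The medians were 0.088, 0.21 and 0.093. Egln3, an oxygen-dependent hydroxylase that is itself a hypoxia target, rose by 5.43, 6.37 and 7.36 log2 units in the 3 sources, from 4.26, 4.11 and 3.95 on the non-cultured arrays to 9.31, 9.68 and 9.60 on the single-cultured, 10.19, 10.66 and 10.58 on the co-cultured and 11.47, 11.22 and 11.71 on the b.End5 arrays. Vldlr, a lipoprotein receptor, rose by 3.14, 3.34 and 6.39 from a non-cultured mean of 4.12. The no-target levels of the non-cultured arrays were 4.21, 4.15 and 4.15, so Egln3 and Vldlr lay near them there, and the size of their rises is uncertain. Epas1, the hypoxia factor most tied to endothelium, fell by 1.44 in co-cultured and 2.29 in b.End5 cells, and Adm, the vessel-relaxing peptide adrenomedullin, fell by 4.25 in b.End5. The labels name no change in oxygen.

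Transcription factors known to act on VEGF receptor genes were called lower more often than higher. Of 28 measured, 1 rose and 7 fell in single-cultured cells, 1 rose and 6 fell in co-cultured cells, and 3 rose and 9 fell in b.End5, with medians of -0.25, -0.25 and -0.17. Over all genes 7.18% were called higher and 5.82% lower in single-cultured cells, 9.10% and 6.20% in co-cultured cells, and 9.10% and 9.06% in b.End5. Klf2 and Klf4, which respond to blood flow, fell by 5.35 and 5.01 in single-cultured and by 4.77 and 5.06 in co-cultured cells. In b.End5 Klf2 and Klf4 fell by 1.74 and 2.71. Sox17, a factor of arterial endothelium, fell by 6.02 in b.End5, where it read 6.03, 3.98 and 5.46 beside 11.19, 11.07 and 11.26 on the non-cultured arrays. Foxc2, a factor of lymphatic valves and mesenchyme, rose by 3.31, 3.71 and 3.72 in the 3 sources. Its non-cultured mean of 3.78 lay near the no-target level, so the size of these rises is uncertain. Prox1, a factor of lymphatic endothelium, was called higher in b.End5 with replicates 1 and 3 above the no-target level and replicate 2 at it, as given above.

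The list of neuropilin partners, which held semaphorins, plexins and other receptors, moved in both directions. Not all of its semaphorins are of class 3. Sema6a, which is not, was called lower in either primary culture, by 1.00 and 1.15. Of 18 measured, 3 rose and 2 fell in either primary culture and 5 rose and 3 fell in b.End5, with medians of 0.23, 0.37 and 0.31, or 0.15, 0.070 and 0.27 with bounds. All genes gave 7.18% higher and 5.82% lower, 9.10% and 6.20%, and 9.10% and 9.06% in the 3 comparisons. Sema3a, which binds Nrp1, rose by 4.69, 4.27 and 7.52 log2 units in the 3 sources. Its non-cultured mean of 4.08 lay near the no-target level, so the size of these rises is uncertain. Sema3c fell by 5.74, 5.86 and 6.58, from 12.63, 12.30 and 12.32 on the non-cultured arrays to 6.48, 6.98 and 6.58 on the single-cultured and 6.55, 6.61 and 6.52 on the co-cultured arrays, and b.End5 read 4.63, 8.39 and 4.48. Sema3d lay at the no-target level in all primary cells and was at least 27.9-fold higher in b.End5 than in non-cultured cells. Met, the receptor of hepatocyte growth factor, rose by 2.91 and 2.63 in the primary cultures.

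The genes that relay the receptor signal inside the cell were called in both directions, with 4 of 40 higher and 3 lower in either primary culture and 6 higher and 7 lower in b.End5. With 7.18% higher and 5.82% lower, then 9.10% and 6.20%, of all genes, the counts of the primary cultures lay near those of all genes. In b.End5 those shares were 9.10% and 9.06%. The medians were 0.012, 0.0022 and 0.10. Itgb3, the integrin subunit that pairs with Itgav and works with Kdr, rose by 2.18, 2.78 and 3.40 in the 3 sources. Hspb1, a heat shock protein phosphorylated downstream of Kdr, fell by 1.68, 1.56 and 6.80. Prkcb, a kinase of the Kdr relay, fell by 2.06 and 1.86 in the primary cultures and was at least 24.3-fold lower in b.End5. Vav3 rose by 2.27 in co-cultured and 4.53 in b.End5 cells. Its non-cultured mean of 4.28 lay near the no-target level, so the size of these rises is uncertain.

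Genes of receptor traffic and phosphatases were called 2 higher and 2 lower of 21 in single-cultured cells, and 1 higher and 4 lower in each of co-cultured and b.End5 cells. Without single-cultured replicate 2 the first pair was 3 and 1, and without b.End5 replicate 2 the last was 0 and 5 (limma). The corresponding shares of all genes were 7.18% and 5.82%, 9.10% and 6.20%, and 9.10% and 9.06%, so the single-cultured counts lay near those of all genes. The medians were 0.32, 0.089 and -0.27. Among the genes called higher, Ptpn6 rose by 1.39 and 1.28 in the primary cultures. Ptprj, a phosphatase that acts on Kdr, fell by 2.47, 2.99 and 2.93 in the 3 sources. It read 5.65, 7.71 and 5.58 on the b.End5 arrays, with replicate 2 highest. Ptprb, the phosphatase known as VE-PTP, fell by 2.53 in b.End5, with values of 10.56, 10.37 and 10.75 beside 13.21, 13.14 and 12.92 on the non-cultured arrays. Between co-cultured and single-cultured cells, 1 gene of the 7 lists was called, the Mmp9 named above. That count rested on single arrays. The extracellular list had 2 called genes without single-cultured replicate 2 or co-cultured replicate 3. The oxygen list had 2 without co-cultured replicate 1 and 1 without single-cultured or b.End5 replicate 2, and the VEGF-induced list had 1 without co-cultured replicate 1 or 3.

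**Figure D4:**
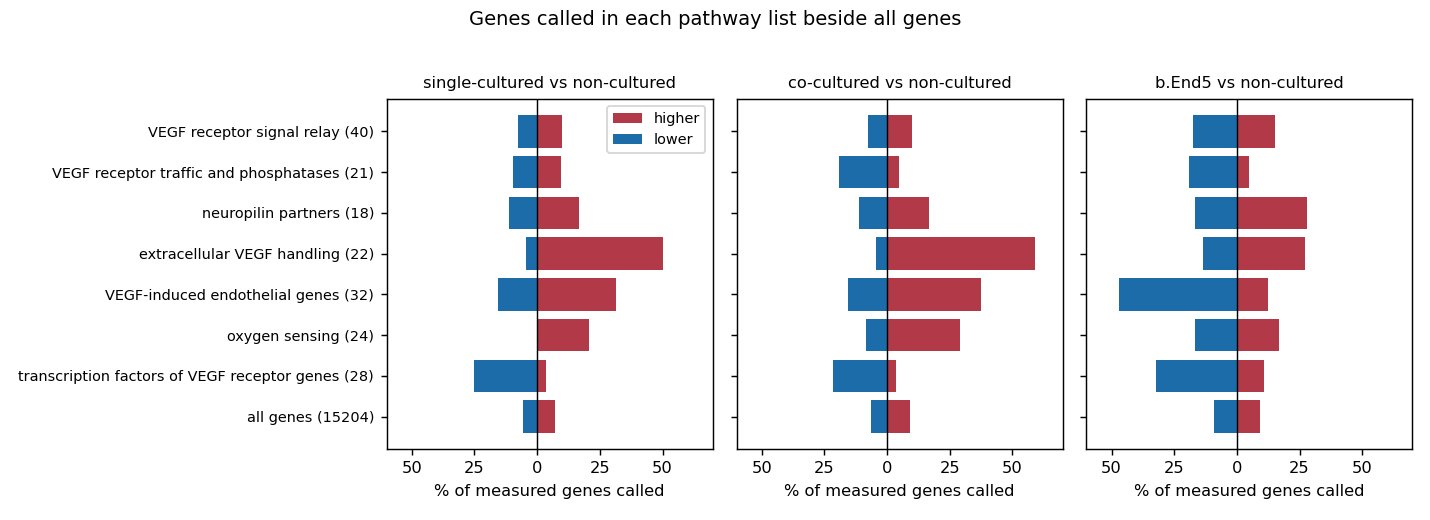
Share of the measured genes of each of 7 lists called higher (right) or lower (left) in percent (x axes), with the number measured in brackets, for single-cultured, co-cultured and b.End5 against non-cultured cells, and all 15204 genes in the lowest bar. The extracellular list had 11, 13 and 6 of its 22 genes called higher, and the list of VEGF-induced genes had 15 of 32 called lower in b.End5.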

How the data were processed

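The deposited table holds log2 intensities that, per the submitters' processing notes, the authors made with RMA, a method that subtracts background, gives all arrays 1 distribution and combines the probes of a set. Neither its version nor the probe-set definition is given in the sources used here. Per the labels, RNA was DNase-treated, and its cDNA was amplified before labelling, which can shift levels of single genes. Each of 12 columns was matched to a sample by its label, and 0 were left unassigned.

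Of 21625 probe sets, 64 were controls and 16537 of 21561 RefSeq accessions matched 1 symbol in the RefSeq table of GRCm38.p6, giving 15204 genes by the highest probe set. No gene was filtered. limma 3.58.1 in R 4.3.3 fitted 4 source means in 1 model over all 12 arrays (8 residual degrees of freedom), and p-values were adjusted by Benjamini-Hochberg over all genes of a comparison. SE is limma's moderated standard error and SD the spread of 3 arrays. The fit was tested on simulated data. For a gene at the no-target level on all arrays of a source, the fold is a bound taken from that level. Python 3.11.15 with pandas 2.3.3 made the tables, and matplotlib 3.10.9 the figures.

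The members and the 19 lists (the 9 members, 7 pathway lists, 10 marker lists and housekeeping genes for scaling) were chosen with earlier results of these data known. Most marker genes were measured, and Gfap of the astrocytes was not. All members were named. Genes from a pathway list were picked among the 2 called genes that rose most and the 2 that fell most in each comparison. Of a marker list, they were picked among the 2 highest genes and those at the no-target level throughout. Not all genes that met these rules are named in the text. The 3 nearest profiles of a member spanning 2 log2 units were all named. Col1a2 by array, Rgs5 and the levels of other listed genes by array were added after their values were seen. After source means were removed, single-cultured and co-cultured arrays of the same number correlated at 0.227, 0.135 and 0.232, all over 0.1, which in no other pair of sources held for all 3 numbers. The labels state no such pairing. Arrays of different numbers were not set beside these, so the correlations do not settle whether the numbers pair the arrays. The reported values come from the fit without a block, and the number entered as a block among the alternatives. Alternatives were cyclic loess, centring on the median or on housekeeping genes, leaving out the dimmest 30% of genes, the mean over probe sets, only the 2 sources compared, limma with trend and robust settings, the replicate number as a block, and leaving out each array in turn.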

Additional observations from a re-analysis of the deposited data

How the results depend on the processing

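Over 20 other settings and 2 chosen after seeing the data, 42 of the 54 member differences kept their direction and their side of the call, and 12 did not in at least 1 setting. The number of called members stayed between 4 and 5 for single-cultured, co-cultured and b.End5 cells against non-cultured cells, at 0 between co-cultured and single-cultured cells, between 3 and 4 for b.End5 against single-cultured cells and at 3 for b.End5 against co-cultured cells. Besides the changes of Nrp2, Flt4 and Vegfb given in the report, only uncalled differences near 0 turned sign. With centring on the median, the co-cultured minus single-cultured difference became -0.0091 for Vegfb and -0.032 for Nrp1. Leaving out 1 array at a time, it ranged from -0.15 to 0.35 for Vegfb, from -0.20 to 0.25 for Nrp1 and from -0.27 to 0.0605 for Nrp2. For b.End5 against single-cultured cells, Nrp1 ranged from -0.0839 to 0.37. For b.End5 against co-cultured cells, Vegfa ranged from -0.36 to 0.092, Kdr from -0.0213 to 0.23 and Nrp1 from -0.12 to 0.35. The cause of these changes was not tested. With the replicate number as a block, 0 members were called between co-cultured and single-cultured cells, as without it, and the adjusted p of Pgf there was 0.117 in limma. The block changed no call of a member, and over all genes it called 174 instead of 181 in that comparison. Without b.End5 replicate 2, 5, 4 and 3 members were called in b.End5 against non-cultured, single-cultured and co-cultured cells. With 3 arrays a source, differences close to 2-fold, such as Flt4 and Nrp2, could not be placed firmly on either side of that limit.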

Other observations

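Markers of further cell types, which enter no comparison of the VEGF genes, gave these summed log2 levels in non-cultured, single-cultured, co-cultured and b.End5 cells. The 9 measured astrocyte markers, led by Gja1 and Aldoc, summed to 11.91 to 12.02, 12.03 to 12.14, 12.12 to 12.37 and 11.05 to 12.09, with Gjb6 at the no-target level throughout. That sum is mostly Gja1, which averaged 11.81 on the non-cultured arrays beside 6.68 for Aldoc. Of the 9, 4 were called lower in single-cultured cells (1 to 4 with 1 array left out) and 3 in each of co-cultured (2 to 4) and b.End5 cells. The shares of all genes called lower against non-cultured cells were 5.82%, 6.20% and 9.06%. The 9 oligodendrocyte markers summed to 8.99 to 9.81, 8.86 to 9.60, 8.91 to 9.76 and 8.89 to 9.11, with Mag, Olig1, Olig2 and Cldn11 at the no-target level in all sources. The 6 blood cell markers, led by Pf4 and Alas2, summed to 10.27 to 10.52, 9.46 to 10.66, 9.61 to 11.52 and 9.92 to 11.31, with Cd3e at that level. The 10 neuron markers summed to 8.91 to 9.38, 7.90 to 8.36, 8.26 to 9.65 and 9.89 to 13.65, with Syt1 at that level.

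The highest neuron sum came from b.End5 replicate 2. Nefl, a neurofilament subunit, read 9.26, 12.97 and 9.53 on the b.End5 arrays and at most 5.59 on the 9 arrays of primary cells. Nefm, another subunit, read 6.76, 12.17 and 6.20 on the b.End5 arrays. Both genes, named after their values were seen, were thus highest on the array that stood apart from its replicates. On the same array Plau read 11.78 beside 9.43 and 9.26, and Sema3c read 8.39 beside 4.63 and 4.48.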
